A study of Mus musculus with 30 samples.

Results

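The genes described here encode 9 cytochrome P450 enzymes of mouse liver: Cyp2b10, Cyp2c29, Cyp2c37, Cyp2c38, Cyp2c39, Cyp2c55, Cyp3a11, Cyp3a13 and Cyp3a25. They were chosen by name, as drug-metabolizing enzymes of the Cyp2b, Cyp2c and Cyp3a subfamilies together with Por, the reductase that hands electrons to them. Every probe annotated with 1 of these 10 symbols was taken. That gave 15 probes for the 9 P450 genes, of 25697 probes and 16593 named genes on the array. No probe was paired with Por in the annotation used, and Por was not analysed here. A probe was tested where its signal exceeded the negative controls (detection p-value below 0.05) in 15 or more of the 30 livers, and 13 of the 15 probes met this.

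Livers came from male db/db mice of the strain BKS.Cg-m+/+Leprdb/J, which are obese and diabetic for want of a functional leptin receptor, and which were 6 to 8 weeks old on arrival. The Ctrl group (15 mice) ate chow for 6 weeks, and the SA_15% group (15 mice) ate chow in which sebacic acid, a medium-chain dicarboxylic acid, gave 15% of the energy (77.6 g/kg food) over the same time. Both groups carried the mutation, and no lean mice were on the arrays. One Illumina MouseRef-8 v1.1 array was used per liver, so n is 15 in each group.

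Cytochromes P450 are heme enzymes of the endoplasmic reticulum that add oxygen to drugs, steroids, bile acids and fatty acids. The nuclear receptors CAR (gene Nr1i3) and PXR (gene Nr1i2) of hepatocytes bind DNA with RXR as partner and switch on genes of the Cyp2b, Cyp2c and Cyp3a subfamilies when foreign chemicals or some bile acids reach the liver. Cyp2b10 is the gene most often read as a sign of CAR activity in the mouse, and Cyp3a11 the one most often read for PXR. Members of a subfamily arose by duplication, lie close together in the genome and are alike in sequence, so a probe for one can also bind transcripts of another. Probe sequences were not used here, and binding to such paralogs was not tested.

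The promoters of some Cyp2c genes show how alike those genes are. RefSeq windows on GRCm38.p6, running from 250 bases before a gene's start to 50 after it, were at hand for all 10 genes, Por included (12 windows, since Cyp2c39 and Cyp3a25 have more than one annotated start). Aligned windows of Cyp2c29, Cyp2c38 and Cyp2c39 were 80.5% to 88.2% identical to each other. Those of Cyp2c37 matched these genes at 67.3% to 69.7%, hardly more than the 67.6% between Cyp2b10 and Cyp3a11, genes of different subfamilies. The Cyp2c55 window matched those of Cyp2c29, Cyp2c38 and Cyp2c39 at 62.3% to 66.9%, and that of Cyp2c37 at 70.8%. The next 4 stretches, each 60 bases on the gene's own strand, are shown because Cyp2c29, Cyp2c39, Cyp2c38 and Cyp2c37 had lower signals in the SA_15% group. The capitals mark CAAAGTNTA, which was picked after the sequences were seen, so its presence in these 4 genes was fixed by that choice.
Cyp2c29, chr19:39286950-39287009, plus strand: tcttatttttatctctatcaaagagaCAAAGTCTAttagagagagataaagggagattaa
Cyp2c39, chr19:39510710-39510769, plus strand: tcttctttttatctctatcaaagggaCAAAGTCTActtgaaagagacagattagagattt
Cyp2c38, chr19:39463153-39463212, minus strand: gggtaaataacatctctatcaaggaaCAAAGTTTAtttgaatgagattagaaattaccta
Cyp2c37, chr19:39992282-39992341, plus strand: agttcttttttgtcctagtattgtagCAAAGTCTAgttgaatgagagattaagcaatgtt

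The capitals begin 109, 86, 111 and 116 bases before the start in Cyp2c29, Cyp2c39, Cyp2c38 and Cyp2c37. On either strand, CAAAGTNTA was found in 0.828% of all 32851 windows and in none of those of Cyp2b10, Cyp2c55, the Cyp3a genes and Por. No link between these letters and the direction of a change was tested, and windows of Cyp2c genes outside the 9 were not looked at singly. Cyp2c55 is the only gene of the 9 whose signal passed the test as higher in the SA_15% group. Its whole window and that of Cyp2b10 are shown, with the bases from the start onward in capitals.
Cyp2c55, chr19:39006769-39007068, plus strand: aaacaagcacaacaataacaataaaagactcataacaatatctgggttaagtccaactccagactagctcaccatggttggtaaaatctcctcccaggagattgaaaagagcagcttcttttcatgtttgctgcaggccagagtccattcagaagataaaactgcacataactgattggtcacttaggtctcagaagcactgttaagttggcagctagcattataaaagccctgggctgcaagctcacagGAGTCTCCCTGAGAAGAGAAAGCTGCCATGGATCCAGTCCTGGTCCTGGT
Cyp2b10, chr7:25897408-25897707, plus strand: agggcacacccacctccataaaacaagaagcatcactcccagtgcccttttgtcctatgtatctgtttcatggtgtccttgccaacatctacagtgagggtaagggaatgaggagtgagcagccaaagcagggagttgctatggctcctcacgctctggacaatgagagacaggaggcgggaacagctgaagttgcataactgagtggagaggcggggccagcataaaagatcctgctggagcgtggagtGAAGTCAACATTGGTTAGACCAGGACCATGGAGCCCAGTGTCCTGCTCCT

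CAR and PXR with RXR recognize pairs of half-sites such as AGGTCA and its variant AGTTCA. The first of these was found, on either strand, in windows of Cyp2c29, Cyp2c39, Cyp3a11 and Cyp3a25, against 16.3% of all windows, and the variant in windows of Cyp2c39 and Cyp3a11, against 14% of all windows. Direct repeats of the same half-site spaced by 3 or 4 bases were found in none of the 12 windows and in at most 0.0152% of all windows. A match is a description of these letters and not a bound site, and the known distal enhancers of Cyp2b10 and Cyp3a11 lie outside such a window. The stretches with AGGTCA in capitals are shown for both Cyp3a genes and for Cyp2c29.
Cyp3a11, chr5:145879984-145880043, minus strand: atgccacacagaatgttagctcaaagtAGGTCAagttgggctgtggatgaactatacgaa
Cyp3a25, chr5:146009762-146009821, minus strand: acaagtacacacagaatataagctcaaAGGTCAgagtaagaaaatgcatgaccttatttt
Cyp2c29, chr19:39286904-39286963, plus strand: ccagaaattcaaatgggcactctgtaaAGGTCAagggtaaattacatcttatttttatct

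Arrays had mean intensities of 314 to 451 for Ctrl livers and 327 to 498 for SA_15% livers, between 10984 and 11783 probes were detected per array, and arrays of one group correlated at 0.988 to 0.996. Before normalization, the peak signal of an array lay at 25523.2 to 35473.8 for Ctrl and 33437.5 to 44012.6 for SA_15% livers. The Cyp2c29 probe detected in no liver had raw signals of 42.4 to 53.9 and 53.7 to 65.1 in these groups. For the Cyp2b10 probe detected in 1 liver they were 54.0 to 71.2 and 57.2 to 80.2. Whether scan or background differed between the groups was not tested. Ctrl replicates 14, 2 and 6 correlated least with their group. Of 10 hepatocyte-defining genes 7 were tested, and their summed normalized signal ranged over 170825 to 183047 for Ctrl livers and 176728 to 189299 for SA_15% livers. The probes for Alb, Tat and Fgb were not tested, that for Alb being detected in 12 Ctrl and 2 SA_15% livers.

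Cyp2b10 and 4 of the 5 Cyp2c enzymes studied were lower in livers of the SA_15% group, and the Cyp3a enzymes studied did not pass the test. In limma with Benjamini-Hochberg adjustment over all 11329 detected probes, 7 of the 13 probes were lower and 1 was higher at an adjusted p under 0.05. Of these 7, the dimmest Cyp2c37 probe met the detection filter through its Ctrl livers. Across the array 36.6% of probes passed (19.4% lower and 17.1% higher), so passing was common among probes of any kind. By gene, Cyp2b10, Cyp2c29, Cyp2c37, Cyp2c38 and Cyp2c39 had lower probes, Cyp2c55 had a higher one, and Cyp3a11, Cyp3a13 and Cyp3a25 had none that passed. The median log2 difference, SA_15% minus Ctrl, was -0.21 over the 13 probes and -0.01 over all detected probes. Since whole liver was measured, fewer hepatocytes and less RNA per hepatocyte cannot be told apart.

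**Figure D1:**
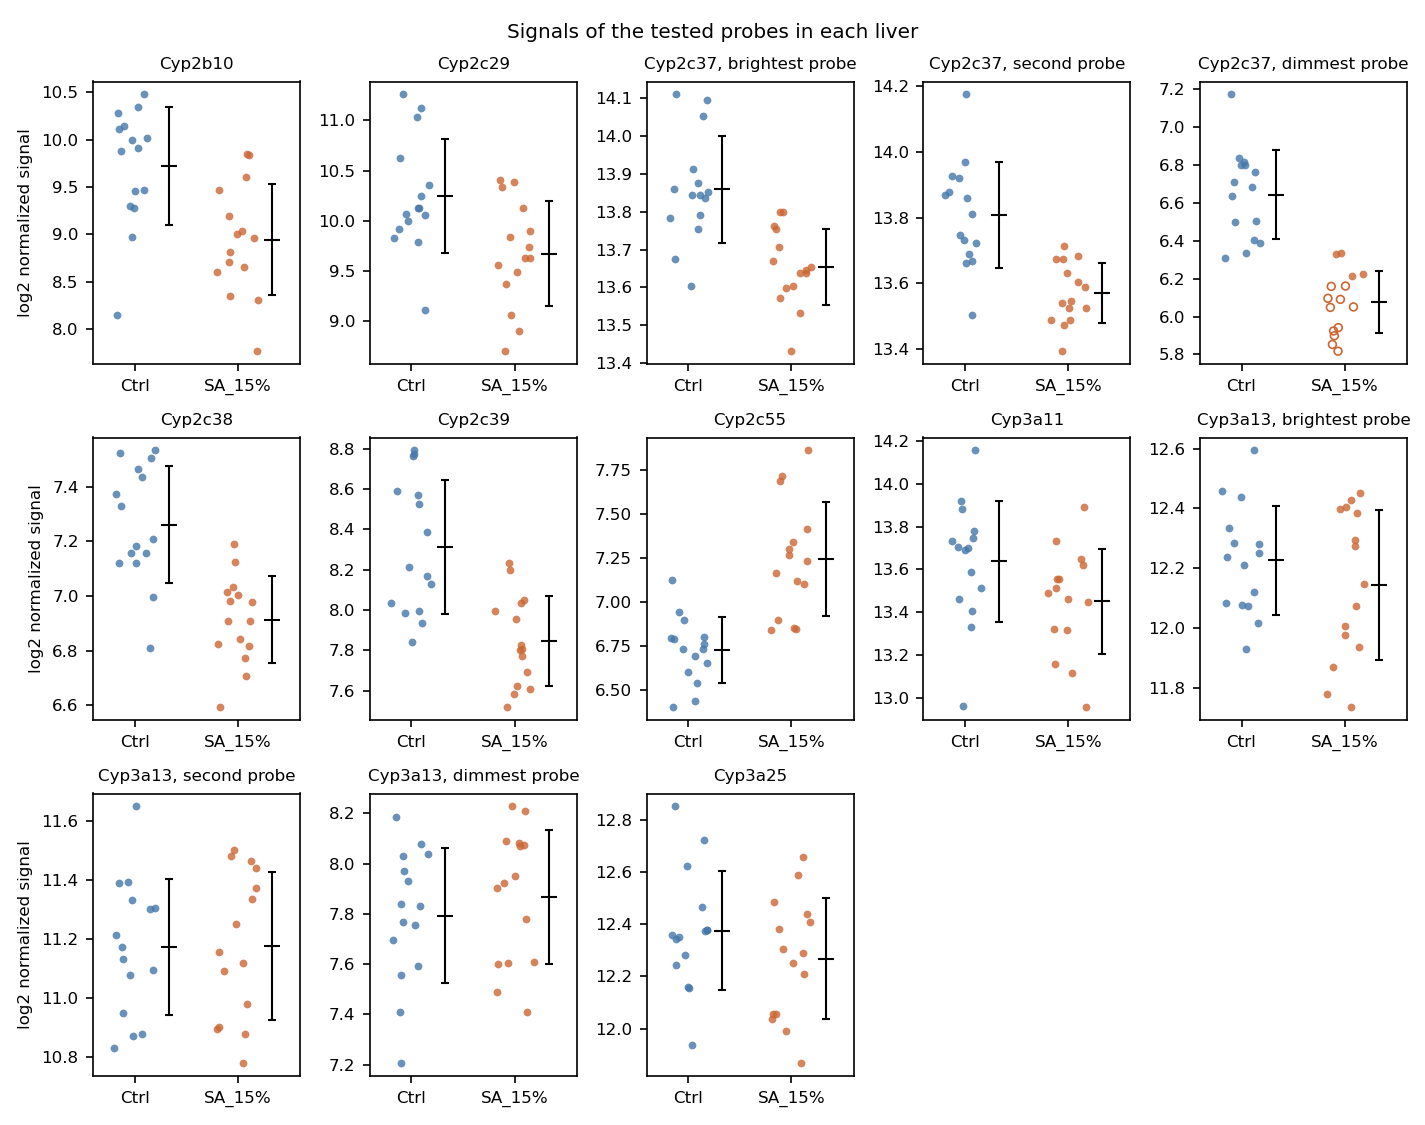
Log2 normalized signal of the 13 tested probes (vertical axes, each with its own range) in each of 15 Ctrl and 15 SA_15% livers. Points are livers, open points had a detection p-value of 0.05 or more, and bars are the mean and SD; all 15 SA_15% livers lie below the Ctrl median for Cyp2b10, Cyp2c37 and Cyp2c38, and all 15 lie above it for Cyp2c55.

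Cyp2b10, the classical CAR target, had a normalized signal (quantile-normalized probe brightness on a linear scale) of 284 in the lowest, 966 in the median and 1427 in the highest Ctrl liver. In the SA_15% group the lowest, median and highest livers had 218, 498 and 919. All 15 SA_15% livers lay below the Ctrl median, and 9 Ctrl livers lay above the highest SA_15% liver. The groups still overlapped, and only 1 SA_15% liver lay below the lowest Ctrl liver. The log2 mean was 9.72 ± 0.62 (SD, n = 15) for Ctrl livers and 8.94 ± 0.59 (SD, n = 15) for SA_15% livers. The difference was -0.78 (SE 0.20), a fold of 0.584 (95% interval 0.439 to 0.777), with an adjusted p of 0.0032 in limma. A second Cyp2b10 probe was detected in no Ctrl liver and in 1 SA_15% liver, and carried no measurement.

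Cyp2b10 was also among the most variable transcripts. Its signal spanned 5.03-fold among Ctrl and 4.22-fold among SA_15% livers, and its SD was above that of 99.6% and 99.5% of tested probes. The median SD over all detected probes was 0.136 and 0.127 on the log2 scale. The spread did not differ detectably between groups. The mean absolute deviation from the group median was 0.458 among Ctrl and 0.451 among SA_15% livers (difference -0.01, SE 0.14, adjusted p = 1.00 in limma).

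Cyp2c29, an abundant P450 of mouse liver that makes epoxides from arachidonic acid, was variable to a similar degree. Normalized signals were 553, 1118 and 2453 in the lowest, median and highest Ctrl livers and 416, 791 and 1358 in the SA_15% livers. In the SA_15% group 11 livers were under the Ctrl median, 3 were below the lowest Ctrl liver and 4 Ctrl livers lay above the highest SA_15% liver. The log2 mean was 10.24 ± 0.57 (SD, n = 15) against 9.67 ± 0.52 (SD, n = 15), a difference of -0.57 (SE 0.18), a fold of 0.672 (95% interval 0.519 to 0.871) and an adjusted p of 0.014 in limma. A second Cyp2c29 probe was detected in none of the 30 livers.

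Cyp2c37, which hydroxylates arachidonic acid, was measured by 3 probes, and all 3 were lower in the SA_15% group with all 15 livers below the Ctrl median. The brightest probe had 12459, 14697 and 17686 in the lowest, median and highest Ctrl livers and 11048, 12827 and 14264 in the SA_15% livers. The difference on the log2 scale was -0.21 (SE 0.045, adjusted p = 6.5e-04), and that of the second probe -0.24 (SE 0.048, adjusted p = 2.2e-04). The dimmest probe was detected in all 15 Ctrl livers but in only 4 SA_15% livers. It thus met the filter of 15 livers through the group where it was higher, and its call adds no support of its own. Its lowest, median and highest signals were 79.2, 103 and 144 in Ctrl livers and 56.4, 68.1 and 80.9 in SA_15% livers, so 13 SA_15% livers lay below the lowest Ctrl liver. Its difference was -0.57 (SE 0.071, adjusted p = 2.5e-07) without background correction and -1.05 with it. The 2 brighter probes, detected in every liver, gave one direction, and sizes over all 3 probes ranged from -0.21 to -0.57. With median centring in place of quantile normalization the differences of the bright probes grew to -0.34 and -0.38.

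Cyp2c38 had a dim signal of 112, 148 and 185 in the lowest, median and highest Ctrl livers and of 96.6, 120 and 146 in the SA_15% livers. All 15 SA_15% livers lay below the Ctrl median, and 8 Ctrl livers lay above the highest of them. The log2 difference was -0.35 (SE 0.066, adjusted p = 1.1e-04). Cyp2c39, which acts on retinoic acid, had 229, 297 and 443 in the Ctrl livers and 183, 224 and 301 in the SA_15% livers. For Cyp2c39, 14 SA_15% livers were below the Ctrl median and 9 were below the lowest Ctrl liver. Its log2 difference was -0.47 (SE 0.097), a fold of 0.723 (95% interval 0.631 to 0.829), with an adjusted p of 3.3e-04.

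Cyp2c55, known in the mouse as an inducible form of liver and gut, went the other way. Its signal was near background in the Ctrl livers, at 84.5 in the lowest, 106 in the median and 140 in the highest, though every liver passed detection. In the SA_15% group the lowest, median and highest livers had 115, 151 and 233. All 15 SA_15% livers lay above the Ctrl median, and 9 lay above the highest Ctrl liver. The log2 mean was 6.73 ± 0.19 (SD, n = 15) without and 7.24 ± 0.33 (SD, n = 15) with sebacic acid, a difference of 0.52 (SE 0.091), a fold of 1.43 (95% interval 1.26 to 1.63) and an adjusted p of 4.3e-05 in limma. With background correction the difference was 0.78.

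Cyp3a11, a major drug- and steroid-oxidizing enzyme of mouse liver, had 7972, 13305 and 18250 in the lowest, median and highest Ctrl livers and 7948, 11494 and 15186 in the SA_15% livers. Although 13 SA_15% livers lay below the Ctrl median, the lowest livers of both groups had nearly the same signal. The log2 difference was -0.19 (SE 0.091), a fold of 0.879 (95% interval 0.774 to 0.999), and the adjusted p in limma was 0.11. The call rested on the setting. Without Ctrl replicate 6, which was the lowest Ctrl liver for Cyp3a11, the difference was -0.23 with an adjusted p of 0.025 in limma. With median centring it was -0.32 with an adjusted p of 0.013.

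Cyp3a25 and Cyp3a13 did not pass the test. Cyp3a25, like Cyp3a11 an oxidizer of steroids, had 3918, 5258 and 7401 in the lowest, median and highest Ctrl livers and 3734, 5013 and 6473 in the SA_15% livers. Its log2 difference was -0.11 (95% interval -0.27 to 0.05, adjusted p = 0.30 in limma), and with median centring -0.24 with an adjusted p of 0.023. For Cyp3a13, a form found in gut as well as liver, the brightest probe had 3902, 4829 and 6184 in the Ctrl livers and 3409, 4541 and 5601 in the SA_15% livers. The 3 Cyp3a13 probes differed by -0.08, 0.00 and 0.08 on the log2 scale from brightest to dimmest, with adjusted p-values of 0.42, 0.98 and 0.55 in limma. Their 95% intervals ran from -0.24 at the lowest to 0.26 at the highest.

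**Figure D2:**
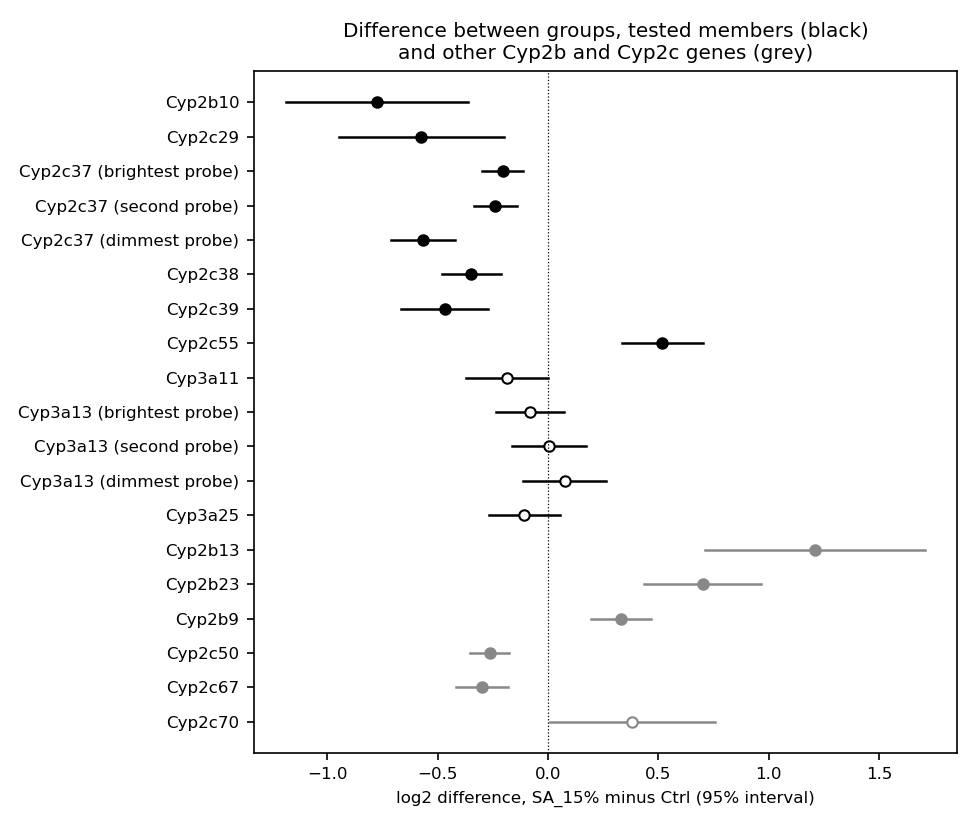
Log2 difference between groups, SA_15% minus Ctrl (horizontal axis), with its 95% interval from limma, for the 13 tested probes of the named genes (black) and for other Cyp2b and Cyp2c genes by their brightest probe (grey). Filled points had an adjusted p under 0.05; Cyp2b10 lies at -0.78 and Cyp2b13 at 1.21.

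By the thresholds of the study's methods, an unadjusted p under 0.001 with a change of at least 30%, 4 of the 15 probes passed. These were the Cyp2b10 probe, the dimmest Cyp2c37 probe, the Cyp2c39 probe and the Cyp2c55 probe, 3 lower and 1 higher. Of all 25697 probes 1.85% passed, 0.806% lower and 1.04% higher. The fold of Cyp2c39, 0.723, counted as a change of at least 30% because the limit was read as a fold of 1.3 in either direction. No probe of the 13 separated the groups without overlap, whereas 0.265% of detected probes did so downward and 0.309% upward. None of the 13 differed in spread, with 0 at an adjusted p under 0.05 and 0 at an unadjusted p under 0.05 in limma on absolute deviations, against 0.0794% and 5.38% of detected probes. That test has little power after adjustment, and a p above the threshold does not show equal spread.

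The 9 genes did not vary as one block from liver to liver. As a description over 30 livers of mixed cells, with each group centred on its own mean, the 2 pairs most alike were the 2 brighter Cyp3a13 probes (r = 0.91) and the 2 brighter Cyp2c37 probes (r = 0.77). The dimmest probe of each gene was less like them, at r = 0.67 and 0.47 for Cyp3a13 and r = 0.58 and 0.53 for Cyp2c37, in part below pairs of different genes. Cyp2c39 resembled Cyp3a11 (r = 0.64) and Cyp3a25 (r = 0.55), and Cyp3a11 resembled Cyp3a25 (r = 0.62). Cyp2b10 went with Cyp2c39 (r = 0.52) and Cyp3a11 (r = 0.51). Cyp2c29 ran opposite to Cyp2c39 (r = -0.57), Cyp3a25 (r = -0.54) and Cyp3a11 (r = -0.49), and with Cyp2c55 (r = 0.43). So Cyp2c29 and Cyp2c39, alike in promoter and both lower in the SA_15% group, were not high in the same livers. The most opposed pair was the second Cyp2c37 probe and Cyp3a25 (r = -0.63). The 2 brighter Cyp2c37 probes also ran opposite to Cyp3a11 (r = -0.46 and -0.48). Ctrl replicate 6 was the lowest Ctrl liver for Cyp3a11 and Cyp3a25 and the highest for all 3 Cyp2c37 probes and for Cyp2c55.

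**Figure D3:**
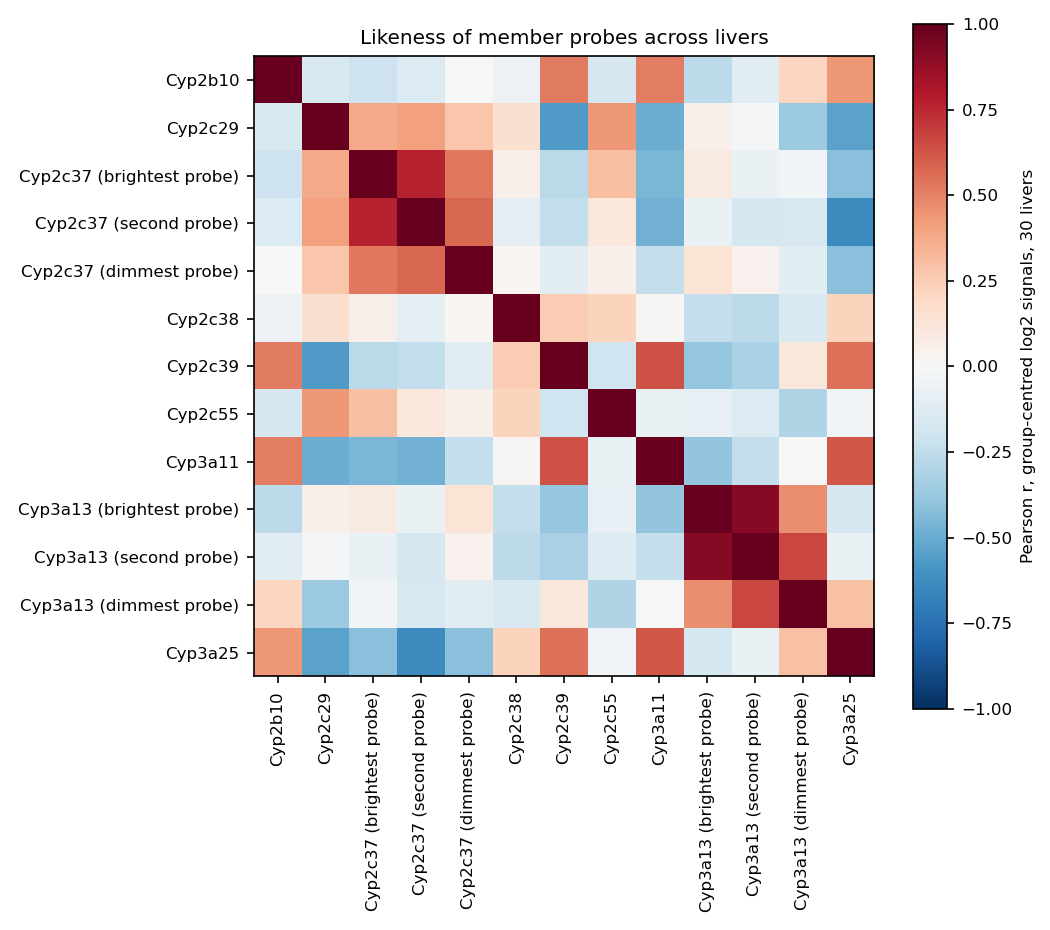
Pearson r between the log2 signals of the 13 tested probes over 30 livers, each group centred on its mean (colour scale from -1 to 1, with both axes listing the probes). Red pairs rise together and blue pairs run opposite. The 2 brighter Cyp3a13 probes give the deepest red (0.91). The second Cyp2c37 probe is blue against Cyp3a25 (-0.63), as is Cyp2c29 against Cyp2c39 (-0.57).

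Within groups, 34 relations were computed, of Cyp2b10 with each other gene and of mean array intensity with each gene. None had an adjusted p under 0.05. The strongest by r was between Cyp2b10 and Cyp3a25 in the SA_15% group, with r = 0.74 (permutation p = 0.0018, adjusted p = 0.061, n = 15) and rho = 0.71 (permutation p = 0.0046, adjusted p = 0.079). It was 0.76 without the 2 livers farthest from the Cyp2b10 median. In the Ctrl group the same pair had r = 0.15 (permutation p = 0.60, adjusted p = 0.84) and rho = 0.06 (permutation p = 0.82, adjusted p = 0.88), and the difference between groups was not tested. Cyp2b10 and Cyp3a11, the strongest pair by rho, had r = 0.61 in the Ctrl group (permutation p = 0.019, adjusted p = 0.16) and rho = 0.73 (permutation p = 0.0032, adjusted p = 0.079), with r = 0.60 without the 2 farthest livers. Cyp2b10 and Cyp2c39 had r = 0.63 in the SA_15% group (permutation p = 0.013, adjusted p = 0.14) and rho = 0.65 (permutation p = 0.011, adjusted p = 0.12), with r = 0.56 without the 2 farthest livers. Mean array intensity was related to Cyp2c29 in the SA_15% group at r = 0.63 (permutation p = 0.013, adjusted p = 0.14) and rho = 0.58 (permutation p = 0.028, adjusted p = 0.19), and at r = 0.47 without the 2 farthest livers.

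**Figure D4:**
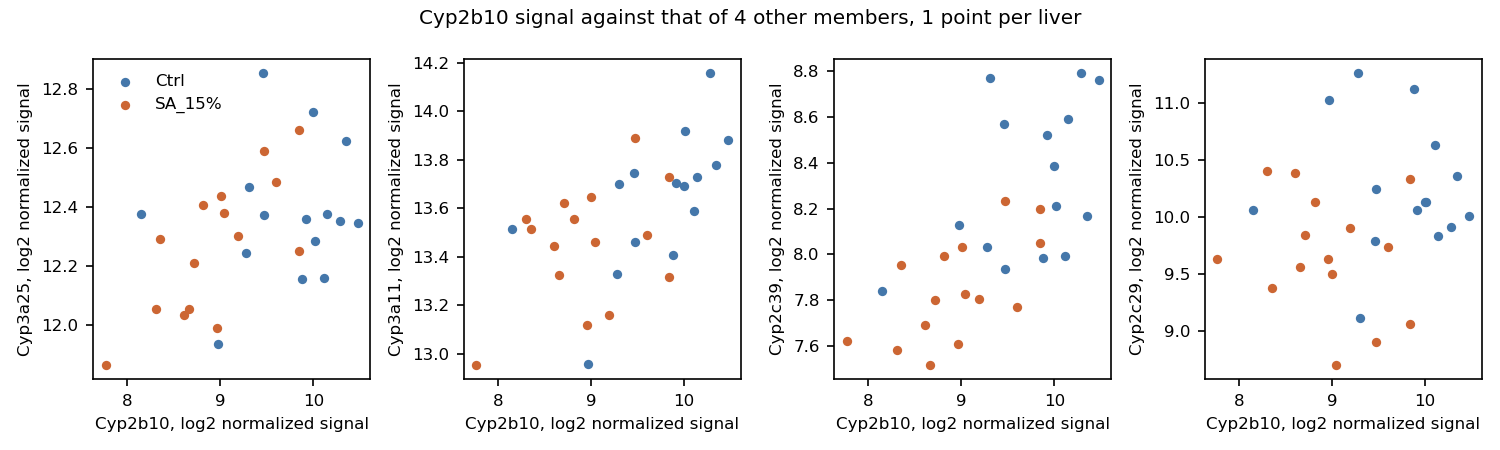
Log2 normalized signal of Cyp2b10 (horizontal axes) against that of Cyp3a25, Cyp3a11, Cyp2c39 and Cyp2c29 (vertical axes), with 1 point per liver, 15 Ctrl in blue and 15 SA_15% in orange. Within the SA_15% group Cyp2b10 and Cyp3a25 have r = 0.74, and no relation passes an adjusted p of 0.05.

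The genes whose group-centred signals were most like those of Cyp2b10, among 7896 genes ranked over 30 livers, were Nrg4, a neuregulin growth factor (r = 0.69), Sult1d1, a sulfotransferase (r = 0.65), and Chmp1b, a membrane-remodelling protein (r = 0.65). Cyp39a1, an oxysterol hydroxylase, and Trappc13, of a vesicle-tethering complex, followed (r = 0.63 for both). Cyp2c29 was most like Dynlt3, a dynein light chain (r = 0.83), Prps2, a nucleotide synthesis enzyme (r = 0.81), Cyp2c70, the P450 that makes muricholic bile acids (r = 0.79), Rpl22l1, a ribosomal protein relative (r = 0.78), and Akr1e1, an aldo-keto reductase (r = 0.77). Cyp3a11 was most like Txlng, a taxilin (r = 0.78), Aifm2, an oxidoreductase (r = 0.78), Nap1l1, a histone chaperone (r = 0.76), Rab5a, an endosome GTPase (r = 0.75), and Acadm, the medium-chain acyl-CoA dehydrogenase (r = 0.74). By Spearman rho the 5 values for Cyp3a11 were 0.69, 0.76, 0.56, 0.55 and 0.68 in the same order, and Cyp39a1 had a rho of 0.55 with Cyp2b10. The genes were picked for the highest r, which raises r by selection, and no p-value was computed. No gene was among the 5 most alike for more than 1 of these 3 enzymes.

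Other enzymes of the same subfamilies did not share one direction. Of 20 listed genes 6 were tested, and 3 were higher and 2 lower, where 18.0% of all genes were higher and 19.5% lower by their brightest probe. All 3 of the higher ones were Cyp2b genes, opposite to Cyp2b10. Cyp2b13 and Cyp2b9 are forms known to be higher in female than in male mouse liver. The log2 difference of Cyp2b13 was 1.21 (SE 0.24, adjusted p = 2.4e-04), from 12.25 ± 0.98 (SD, n = 15) to 13.46 ± 0.30 (SD, n = 15). That of Cyp2b23 was 0.70 (SE 0.13, adjusted p = 9.2e-05) and that of Cyp2b9, named after its values were seen, 0.33 (SE 0.067, adjusted p = 2.5e-04). For each of the 3, all 15 SA_15% livers lay above the Ctrl median. The Cyp2b9 call was lost with median centring (0.20, adjusted p = 0.055).

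The lower genes were Cyp2c50 (-0.26, SE 0.044, adjusted p = 2.0e-05) and Cyp2c67 (-0.30, SE 0.058, adjusted p = 1.6e-04). All 15 SA_15% livers lay below the Ctrl median for both, and a second, dimmer Cyp2c67 probe did not pass (-0.16, adjusted p = 0.12). Cyp2c70 did not pass (0.38, SE 0.18, adjusted p = 0.10), with 13 of 15 SA_15% livers above the Ctrl median.

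P450 enzymes of families 1 and 2 outside these subfamilies were mixed, with 2 of 13 tested genes higher, 3 lower and 8 not called by their brightest probe. One of the lower genes, Cyp2d26, was named for its disagreeing probes, with -0.13 on the brightest (adjusted p = 0.037) and 0.19 and 0.20 on the other 2 (adjusted p = 0.032 and 0.044). Cyp2d9, a steroid hydroxylase higher in male than in female mice, differed by -1.02 (SE 0.13, adjusted p = 5.6e-07) and Cyp2d10 by -0.25 (SE 0.040, adjusted p = 1.4e-05). Cyp2e1, which oxidizes ethanol, rose by 0.18 (SE 0.037, adjusted p = 3.7e-04). Cyp2a5, a coumarin hydroxylase, rose on all 4 of its probes, by 0.21 on the brightest (adjusted p = 0.0056) and by 0.42 to 0.60 on the others.

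Genes of heme and electron supply, listed together with genes of heme breakdown, also moved in both directions, with 3 of 13 higher and 4 lower. Of all genes 18.0% were higher and 19.5% lower. Alas1, the first and rate-limiting enzyme of heme synthesis and itself a CAR and PXR target, differed by -0.50 (SE 0.080, adjusted p = 1.2e-05), and 15 of 15 SA_15% livers were below the Ctrl median. Cyb5a, cytochrome b5, an electron donor to P450 enzymes, differed by -0.24 (SE 0.046, adjusted p = 1.4e-04), and Pgrmc1, a heme-binding P450 partner, by -0.24 (SE 0.061, adjusted p = 0.0028). Hmox1, which degrades heme and so does not supply it, rose by 0.43 (SE 0.082, adjusted p = 1.2e-04). The other higher genes, named after their values were seen, were Urod (0.11, adjusted p = 0.0063 in limma) and Fech (0.24, adjusted p = 0.0066). The remaining lower gene was Ppox (-0.16, adjusted p = 0.023).

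Of 13 tested receptors and cofactors of P450 induction, 6 were lower, 1 was higher and 6 were not called. Foxo1, a coactivator of CAR and PXR, differed by -0.41 (SE 0.059, adjusted p = 2.0e-06). Hnf4a, the hepatocyte factor that many P450 promoters need, differed by -0.29 (SE 0.055, adjusted p = 8.7e-05), and Dnajc7, the cochaperone that holds CAR in the cytoplasm, by -0.20 (SE 0.060, adjusted p = 0.0088). Rxrb rose by 0.19 on its brightest probe (SE 0.037, adjusted p = 2.4e-04), while a second probe gave -0.04 (adjusted p = 0.65) and the call was lost with median centring. The receptors themselves were named after their values were seen. Nr1i2, encoding PXR, differed by -0.15 (SE 0.047, adjusted p = 0.012), and Nr1i3, encoding CAR, by 0.08 (SE 0.074, adjusted p = 0.40), or -0.03 with median centring.

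Other known targets of CAR and PXR moved in both directions, with 6 of 13 tested genes higher and 4 lower by their brightest probe. Of all genes 18% were higher and 19.5% lower. Ugt1a6a, a glucuronosyltransferase named for its disagreeing probes, counted as lower by its brightest probe (-0.23, adjusted p = 0.0026), while its 2 other probes were higher (0.52, adjusted p = 8.4e-06, and 0.46, adjusted p = 0.0047). The other lower genes, named after their values were seen, were Gadd45b (-0.47, adjusted p = 0.0012 in limma), Slco1a4 (-0.45, adjusted p = 0.039) and Aldh1a7 (-0.15, adjusted p = 0.039). Of the 13 genes, the 4 with the smallest p-values were all higher in the SA_15% group. The glutathione transferases Gsta1, Gstm1 and Gstm3 rose by 2.21 (SE 0.22, adjusted p = 5.1e-09), 0.79 (SE 0.045, adjusted p = 3.2e-14) and 0.40 (SE 0.048, adjusted p = 1.7e-07) on the log2 scale. Abcc3, an exporter of conjugated bile acids and drugs, rose by 0.43 (SE 0.049, adjusted p = 3.8e-08). For each of the 4, all 15 SA_15% livers lay above the Ctrl median.

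Drug-metabolizing P450 enzymes are mostly made by hepatocytes around the central vein. Of 11 tested pericentral markers 3 were higher, 4 lower and 4 not called in the SA_15% group, and of 9 periportal markers 7 were lower and 2 not called. Markers of other cells were in part higher. For comparison, 18.0% of all genes were higher and 19.5% lower by their brightest probe. Of 11 tested Kupffer cell and macrophage markers 5 were higher, none was lower and 6 were not called. Their summed signal was 1170 to 3041 over Ctrl livers and 1757 to 3812 over SA_15% livers. Among the 5, Gpnmb was near background in Ctrl livers, with a log2 mean of 6.02 against 7.76 in SA_15% livers. Among 8 markers of sinusoidal endothelium 4 rose and 4 were not called by the brightest probe (sums 3066 to 4404 and 3638 to 5246), and of 3 red blood cell genes 2 were higher (sums 5850 to 12892 and 11428 to 21313). The 5 stellate cell markers and the 1 lymphocyte marker tested were not called, and no cholangiocyte marker was detected well enough to test. The part of these cells in the differences of the P450 genes was not tested.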

How the data were processed

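RNA of 30 livers, 15 Ctrl and 15 SA_15%, was measured on 1 array each. The authors deposited raw mean bead intensities of 25697 probes, without normalization or background correction, beside the detection p-value of every probe on every array, and the submitters' processing notes name GenomeStudio 2009.2. A second deposited table of quantile-normalized intensities ranked the probes as the first did (rank correlation 1) and served as an alternative. The signal of a probe near background understates a change. Signals of different probes were not set against each other as amounts, except that those of marker lists were summed. Such sums weigh the brightest probes most and are not counts of cells.

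Intensities were quantile normalized and transformed to log2, as the study's methods state for the deposited values (R 4.3.3, limma 3.58.1). The 11329 probes detected (p-value below 0.05) on 15 or more of 30 arrays were tested with limma's lmFit and eBayes, with Benjamini-Hochberg adjustment over all of them. The study used a one-way ANOVA followed by a global error assessment, which was not rerun here. The alternatives tried were a classical ANOVA and a pooled error, the median variance over 201 probes of like brightness. Spread was tested with limma on absolute deviations from the group median. Relations used 100000 permutations, two-sided, with Benjamini-Hochberg adjustment over 34 relations. The code was tested on simulated data.

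Gene symbols of the platform's annotation were brought up to date with RefSeq GRCm38.p6 by Entrez identifier: 23978 probes had 1 symbol, none had several and 1719 had none here. Promoter windows came from RefSeq GRCm38.p6. Of each gene list up to 4 genes with the smallest p-values were named, by their brightest detected probe, and for Cyp2b10, Cyp2c29 and Cyp3a11 the 5 genes most like them. The members and lists were chosen with earlier results of these data known. No 2 arrays held identical values. The number of arrays limits the precision, and labels do not give the chip or scan of an array, so no batch could be fitted.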

Additional observations from a re-analysis of the deposited data

How the results depend on the processing

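Of the 13 tested probes 8 were called, and the same 7 lower and 1 higher probes were called under every alternative that tested them at an adjusted p under 0.05 in limma or ANOVA. By the thresholds of the study's methods 4 probes were called, and 475 of all probes rather than 4141. Median centring moved the median log2 difference over the whole array from -0.01 to -0.07, called 10 probes (Cyp3a11 and Cyp3a25 also lower), and split all calls into 769 higher and 3066 lower instead of 1942 and 2199. Cyp3a11 was also called with the pooled error (adjusted p = 0.0017) and with the leading residual component as a covariate (adjusted p = 0.027). It was called too without the 3 least correlated arrays (adjusted p = 0.042), an alternative chosen after seeing the data. The pooled error leaves out a probe's own spread between mice. The SD of Cyp3a11 was above that of 94.1% of tested probes in Ctrl and 93.1% in SA_15% livers, so its pooled p-value is too small. Without any filter 9 probes were called, the added one being a Cyp2c29 probe that was called higher, opposite to the tested Cyp2c29 probe, although it was detected in no liver. Requiring detection on all 30 arrays left 12 probes and 7 calls, without the dimmest Cyp2c37 probe.

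Leaving out 1 array at a time gave 8 to 9 called probes of these genes and 3924 to 4128 of all probes. The second Cyp3a13 probe, at 0.00, turned to -0.13 with median centring, -0.010 with array weights and -0.046 without the 3 least correlated arrays, and ran from -0.021 to 0.037 with 1 array left out. Nr1i3 turned to -0.032 with median centring. No probe of these genes differed in spread under any of 4 alternatives.

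No label says what the replicate numbers share, and the check for pairing was mixed. Of 15 same-numbered pairs 10 had a correlation of deviations over 0.1 (range -0.07 to 0.39, median 0.16, against a median of -0.02 for pairs of different numbers), and 4 Ctrl and 6 SA_15% livers correlated best with their own number. Cyp2b10 was lower in the SA_15% liver in 15 of 15 same-numbered pairs and Cyp2c29 in 13. In both groups replicate 1 was the lowest and replicate 15 the highest liver for Cyp2b10, and replicate 11 the lowest and replicate 7 the highest for Cyp2c29. As not every pair passed, the main test did not pair the mice by number. The spreads and correlations above treat each liver as independent, and variation shared by same-numbered livers was not removed from them. With the replicate block 4459 of all probes and 8 of these genes' probes were called, again 1 higher and 7 lower, and the SE fell to 0.096 for Cyp2b10 (adjusted p = 6.3e-06) and to 0.099 for Cyp2c29 (adjusted p = 1.6e-04). Of the other genes named by their difference, Cyp2c70 passed only under some alternatives. These were the block (adjusted p = 0.025), the pooled error (adjusted p = 2.4e-07) and the residual component (adjusted p = 0.0085). The others left out Ctrl replicate 7 or SA_15% replicate 13 (adjusted p = 0.048 for both). The pooled error again ignores the gene's own spread (Cyp2c70 SD 0.64 in Ctrl and 0.43 in SA_15% livers). Cyp2a5 did not pass on its brightest probe with median centring (adjusted p = 0.093).

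Limits are that each signal rests on 1 probe design, that dim probes such as those of Cyp2c38, Cyp2c55 and the dimmest one of Cyp2c37 lie near background, where the size depends on background correction, and that paralogs were not told apart.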
